A study of Homo sapiens with 10 samples.

Results

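Transcripts of 7 genes were followed here in SNU-387 cells: the receptor genes AXL, TYRO3 and MERTK, their ligand genes GAS6 and PROS1, the receptor gene MET and its ligand gene HGF. They were chosen by gene symbol and role, with no threshold on a measured value but with earlier results of these data known, and are 7 of 58174 genes in the count tables. SNU-387 is an established human line from a pleomorphic hepatocellular carcinoma, and the study compared cells that stably expressed wild-type YES (n = 5 libraries) with cells that stably expressed YES T348I (n = 5 libraries). YES, the product of YES1, is a tyrosine kinase of the SRC family, T348I is a substitution at the gatekeeper residue of its drug-binding pocket, and dasatinib, which inhibits SRC-family and ABL kinases, was used at 100 nM for all 10 libraries. No library from cells without dasatinib was analysed here, and the labels name neither the vector and promoter behind YES nor whether a line is a clone or a pool. They also do not say that the libraries of a genotype came from separate cultures, so p-values measure the spread between these libraries, which may be technical.

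AXL, TYRO3 and MERTK make up the TAM family of receptor tyrosine kinases. Their ligands GAS6 and protein S, the product of PROS1, are vitamin K-dependent proteins that bind phosphatidylserine on membranes with one end and the receptor with the other. AXL binds GAS6, whereas TYRO3 and MERTK bind both ligands, and in the liver TAM receptors are best known from macrophages and other non-parenchymal cells. MET is the receptor for hepatocyte growth factor, the product of HGF, which in the liver is made mainly by stellate and endothelial cells. AXL and MET are both known for their part in resistance of carcinoma cells to kinase inhibitors.

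The promoters of AXL and MET are shown because AXL was the receptor with the larger difference between genotypes and MET is the other abundant receptor, whose difference did not pass the test. RefSeq start sites (build GRCh38.p14) gave 9 windows for the 7 genes, each reaching 250 bases upstream of a start. Both AXL windows lie on the plus strand: the first covers chr19:41218973-41219202 (230 bases, ending before the first annotated exon base) and the second chr19:41226505-41226754 (250 bases, inside the gene but overlapping no annotated exon). The MET window covers chr7:116671946-116672195 on the plus strand. Capitals mark matches, on either strand, to GGGCGG (the GC box, a motif of the SP1 family) or to GGAATG (a core TEAD motif).
AXL, first start: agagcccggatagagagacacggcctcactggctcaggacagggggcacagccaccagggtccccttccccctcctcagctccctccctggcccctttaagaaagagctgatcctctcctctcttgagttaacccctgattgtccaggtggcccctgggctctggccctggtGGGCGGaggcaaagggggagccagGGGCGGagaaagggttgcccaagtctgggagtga
AXL, second start: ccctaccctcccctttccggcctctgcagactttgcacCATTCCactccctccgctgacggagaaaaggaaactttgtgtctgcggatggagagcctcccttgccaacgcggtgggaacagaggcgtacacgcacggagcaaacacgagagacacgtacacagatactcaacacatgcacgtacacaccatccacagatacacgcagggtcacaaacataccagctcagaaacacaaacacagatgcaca
MET: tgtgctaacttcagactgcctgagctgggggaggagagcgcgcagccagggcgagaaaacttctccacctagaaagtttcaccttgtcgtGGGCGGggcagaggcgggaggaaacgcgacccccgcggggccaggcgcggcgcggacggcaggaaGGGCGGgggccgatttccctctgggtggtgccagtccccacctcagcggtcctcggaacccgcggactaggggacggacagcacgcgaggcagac
The first AXL window held 2 GC boxes, 78 and 54 bases before its start, and the second held 1 TEAD match, 212 bases before its start. The MET window held 2 GC boxes, 160 and 95 bases before its start. TGANTCA, a motif of AP-1 (dimers of FOS and JUN proteins), matched in neither AXL window nor the MET window. Among the 9 windows it matched once, 220 bases before a RefSeq start of TYRO3. That window lies inside the annotated gene, and 178 of its bases overlap an annotated exon. Over 35116 RefSeq windows of 250 bases, 42.6% held a GC box, 11.9% a TEAD match and 6.57% an AP-1 match. A match is a description of the letters and not of binding.

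Each library held 10168307 to 16939029 counts in genes. The sample titles come in a longer style (3 libraries per genotype) and a shorter style (2 per genotype), called long-title and short-title libraries here. The labels do not say what the styles stand for, so the style entered the model as a possible batch. At an adjusted p under 0.05, 5918 of the 13743 tested genes differed between the title sets (43.1%) and 3709 differed between genotypes (27%). The 3 long-title T348I libraries lay close together, with a median SD over genes of 0.077 in log2 CPM (counts scaled to a common library size) against 0.23 in the long-title wild-type libraries. Every pair of libraries of a genotype and set still differed beyond sampling noise (chi-square per degree of freedom 1.61 to 52.8), and long-title wild-type replicate 1 stood farthest from its set (52.8 and 37.4). Each library was counted as labelled. Repeat preparations of the same culture can also differ beyond sampling noise, so results are also given with the long-title T348I libraries (1.61 to 2.12) summed. YES1, whose counts pool the endogenous gene and the construct, measured 303 ± 102 CPM with wild-type YES and 453 ± 86.4 CPM with T348I (SD, n = 5 each; log2 fold change 0.59 ± 0.19 SE, edgeR adjusted p = 0.0326). Among the hepatocyte markers, ALB, APOA1, TTR and HNF4A had at most 3 counts in every library, APOB had at most 20 and TF at most 30. SERPINA1 and AFP passed the filter, at 13.2 and 2.42 CPM with wild-type YES and 13.3 and 3.25 CPM with T348I. The 6 mesenchymal markers summed to 12220 to 37280 CPM in wild-type and 8820 to 13460 CPM in T348I libraries, with a median log2 fold change of -0.65. Of them 1 was called, the fibronectin gene FN1, which fell (log2 fold change -1.12, adjusted p = 0.00556). COL1A1 (-1.20, adjusted p = 0.132), COL1A2 (-0.96, adjusted p = 0.0700) and SPARC (-0.34, adjusted p = 0.239) did not pass. Neither did VIM (0.15) and CDH2 (0.05). The 6 epithelial markers summed to 754 to 990 CPM in wild-type and 1026 to 1075 CPM in T348I libraries, without overlap. Of single tested genes, 6.94% were higher in T348I without overlap. CLDN1 (0.75, adjusted p = 0.000135) and KRT18 (0.40, adjusted p = 0.00809) rose among them. KRT8, the largest part of the sum (538 and 598 CPM), was not called (0.15, adjusted p = 0.255), nor was EPCAM (-0.51, adjusted p = 0.194). CDH1 and KRT19 had at most 3 counts. Of 6 macrophage markers 4 were near 0 (PTPRC at most 9 counts, CD163 and ITGAM at most 4, CD68 at most 2), CD14 and CSF1R fell (log2 fold changes of -1.58 and -0.52), and the sum of all 6 ran from 29.3 to 89.7 CPM in wild-type and from 18.1 to 35.0 CPM in T348I libraries. CD14 was uneven between wild-type libraries (13.9 ± 17.6 CPM, SD). Its edgeR adjusted p was 0.0279, with 0.0713 from long-title and 0.345 from short-title libraries only. The 4 endothelial markers summed to 5.47 to 14.2 CPM against 3.17 to 5.16 CPM, with PECAM1 lower in T348I (log2 fold change -1.15, adjusted p = 0.00985). PECAM1 was called from long-title libraries only (adjusted p = 0.0237) and not from short-title ones (0.293). The part of these markers in the results below was not tested.

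AXL and TYRO3 were higher and PROS1 was lower with YES T348I, while MET and GAS6 did not pass the test and MERTK and HGF were near the limit of detection. Thus 3 of the 5 members with enough reads for the test were called (2 higher, 1 lower), where 27% of all genes tested were called, 13.7% higher and 13.3% lower. In AXL, TYRO3 and PROS1 the genotypes did not overlap within either title set, as for 25.2% of all genes tested, and over all 10 libraries together none of the 5 separated the genotypes, against 11.1% of all genes tested (6.94% higher and 4.15% lower). Within the long-title libraries these 3 of the 5 separated the genotypes (35.1% of all genes did), and within the short-title libraries all 5 did (59.3%). Fold changes are log2 ratios of T348I over wild type with the title set in the model, and the median over all genes tested was -0.030. In RNA from bulk cultures, fewer cells with a transcript and less of it per cell cannot be told apart.

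**Figure D1:**
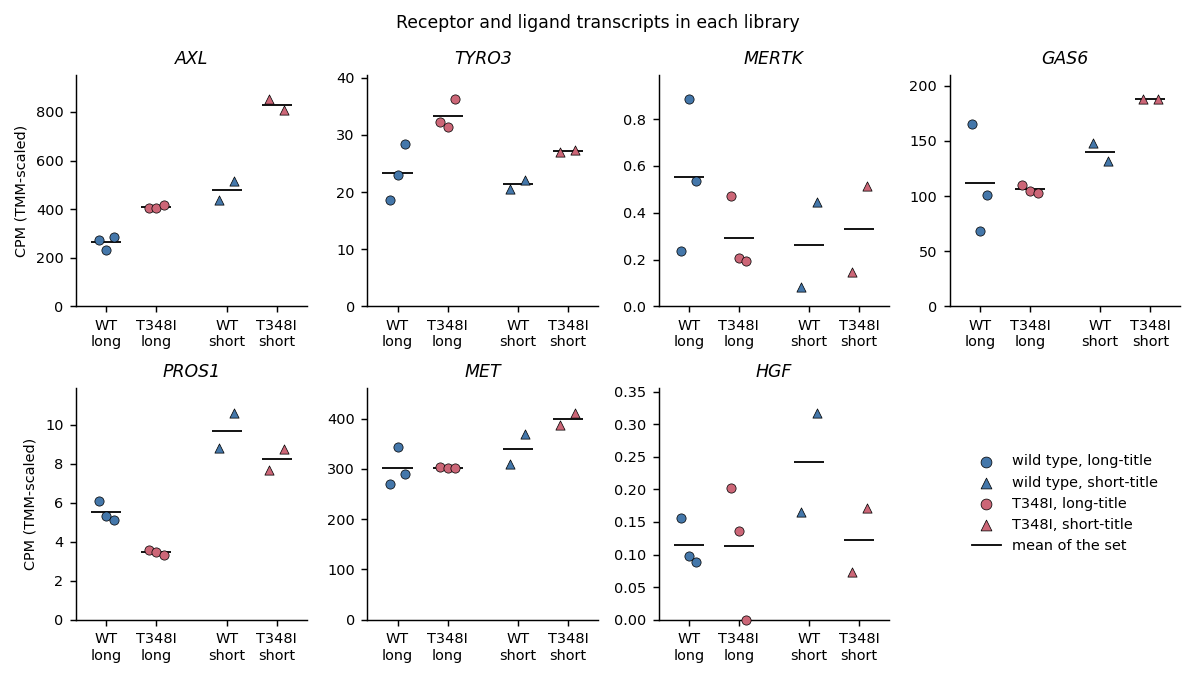
Transcript level of each gene in each of the 10 libraries, as TMM-scaled CPM on linear axes that start at 0, by genotype (blue wild type, red T348I) and title set (circles long-title, triangles short-title), with a line at the mean of each set. The T348I points lie above the wild-type points within both sets for AXL and TYRO3 and below them for PROS1, while MERTK and HGF stay under 1 CPM.

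AXL is a receptor whose high expression marks mesenchymal-like carcinoma cells. The gene (ENSG00000167601.11) lies on chromosome 19, 41219203 to 41261766, plus strand, in GRCh38. In wild-type libraries AXL measured 273, 232 and 285 CPM in long-title libraries and 439 and 516 CPM in short-title ones. In T348I libraries it measured 404, 405 and 417 CPM in long-title libraries and 852 and 808 CPM in short-title ones. Each T348I library was above every wild-type library of its own set, but the short-title wild-type libraries were above the long-title T348I libraries. The means were 349 ± 122 CPM with wild-type YES and 577 ± 231 CPM with T348I (SD, n = 5 each), a log2 fold change of 0.70 ± 0.08 SE (95% interval 0.52 to 0.88, edgeR quasi-likelihood adjusted p = 0.000117). The log2 difference was 0.63 from long-title libraries only (adjusted p = 0.0117) and 0.81 from short-title libraries only (adjusted p = 0.00641), and the difference between these 2 values was 0.16 ± 0.17 SE (interaction, unadjusted p = 0.365). An exact two-sided permutation test within title sets gave p = 0.0167, the smallest that the 120 arrangements allow, and 0.0389 after Benjamini-Hochberg adjustment over the 7 genes. A gene reaches that smallest p when its genotypes do not overlap within either set, in the same direction, as for 25.2% of all genes tested. The permutation p was not adjusted over all genes. Dropping the title set term lost the call (0.73, adjusted p = 0.143), in a fit whose spread then includes the difference between sets. It held with the long-title T348I libraries summed into 1 library (0.73, adjusted p = 0.00511) and without long-title wild-type replicates 1 and 2 (0.69, adjusted p = 4.57e-05).

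AXL also differed between the title sets. Of the 5 tested members 4 were higher in the short-title libraries and none lower, against 21% and 22.1% of all genes tested. The short-title libraries were higher by 0.94 ± 0.08 SE on the log2 scale (adjusted p = 3.35e-06). An antisense gene, AC011510.1, overlaps AXL, and 97.4% to 99.97% of the strand-assigned reads of AXL came from the AXL strand in every library. Counting without strand, which drops 0.849% to 5.64% of AXL reads, gave the same fold change of 0.70.

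TYRO3 is the TAM receptor best known from the nervous system, and it binds protein S as well as GAS6. The gene (ENSG00000092445.11) lies on chromosome 15, 41557675 to 41583586, plus strand. In wild-type libraries TYRO3 measured 18.6, 23.0 and 28.5 CPM in long-title libraries and 20.6 and 22.1 CPM in short-title ones. In T348I libraries it measured 32.3, 31.3 and 36.2 CPM in long-title libraries and 27.0 and 27.4 CPM in short-title ones. All T348I libraries were above the wild-type libraries of their set, and the only overlap across sets was between long-title wild-type replicate 3 and the 2 short-title T348I libraries. The means were 22.6 ± 3.70 CPM and 30.9 ± 3.82 CPM (SD, n = 5 each), a log2 fold change of 0.45 ± 0.11 SE (95% interval 0.21 to 0.68, edgeR adjusted p = 0.00927). TYRO3 was not called between the title sets (short-title minus long-title log2 difference -0.21, adjusted p = 0.141).

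The TYRO3 difference was less firm than that of AXL. It was 0.51 from long-title libraries only (adjusted p = 0.0778) and 0.36 from short-title libraries only (adjusted p = 0.126), and the interaction was -0.16 (unadjusted p = 0.489). The call was also lost with the long-title T348I libraries summed (0.42, adjusted p = 0.0783) and with no title set term (0.45, adjusted p = 0.0501). It held in each of the 10 fits that left out 1 library, between 0.36 and 0.53. The exact permutation test within title sets gave p = 0.0167 (0.0389 adjusted over the 7 genes). That is the smallest p it allows, a floor shared by 25.2% of all genes tested.

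MERTK, the TAM receptor by which macrophages clear dying cells, was barely detected. The gene (ENSG00000153208.16) lies on chromosome 2, 111898479 to 112029561, plus strand. Wild-type libraries held 3, 9 and 6 counts in long-title libraries and 1 and 7 in short-title ones. T348I libraries held 7, 3 and 2 counts in long-title libraries and 2 and 9 in short-title ones. The ranges overlapped almost entirely. The sums were 26 counts with wild-type YES and 23 with T348I, a ratio of 0.778 after scaling for depth, with a 95% interval of 0.424 to 1.42 that covers counting error only, so a difference smaller than these bounds was not detectable at this depth. MERTK did not enter the test across genes, and without the low-count filter its log2 fold change was -0.36 (edgeR adjusted p = 0.707 over 30742 genes).

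GAS6 encodes the ligand that all 3 TAM receptors share. The gene (ENSG00000183087.14) lies on chromosome 13, 113820549 to 113864067, minus strand. In wild-type libraries GAS6 measured 165, 68.7 and 100.5 CPM in long-title libraries and 148 and 132 CPM in short-title ones. In T348I libraries it measured 110, 105 and 103 CPM in long-title libraries and 188 and 187.5 CPM in short-title ones. The long-title wild-type libraries spanned both sides of their T348I counterparts, whereas in the short-title set both T348I libraries were higher. The means were 123 ± 38.6 CPM and 139 ± 44.8 CPM (SD, n = 5 each), a log2 fold change of 0.13 ± 0.18 SE that did not pass the test (95% interval -0.26 to 0.51, edgeR adjusted p = 0.640).

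The GAS6 result turned on 1 library, long-title wild-type replicate 1, the wild-type library with the highest value. Without it the log2 fold change was 0.37 (adjusted p = 0.00793), and without long-title wild-type replicates 1 and 2 it was 0.28 (adjusted p = 0.0137). In the short-title set alone it was 0.44 (adjusted p = 0.0427) and in the long-title set alone -0.08 (adjusted p = 0.877), and the interaction did not pass (0.50 ± 0.35 SE, unadjusted p = 0.183). GAS6 was higher in short-title libraries by 0.58 (adjusted p = 0.0205). The gene overlaps the antisense gene GAS6-AS1, and 95.6% to 99.4% of its strand-assigned reads came from the GAS6 strand. Counting without strand would drop 23.3% to 30.0% of GAS6 reads, with a log2 fold change of 0.13 that again was not called.

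PROS1 encodes protein S, which besides its TAM ligand role is an anticoagulant cofactor made in hepatocytes. The gene (ENSG00000184500.15) lies on chromosome 3, 93873033 to 93980003, minus strand. In wild-type libraries PROS1 measured 6.11, 5.31 and 5.09 CPM in long-title libraries and 8.79 and 10.6 CPM in short-title ones. In T348I libraries it measured 3.58, 3.48 and 3.32 CPM in long-title libraries and 7.69 and 8.77 CPM in short-title ones. All T348I libraries were below the wild-type libraries of their set, although short-title wild-type replicate 1 and short-title T348I replicate 2 differed by only a small margin. The means were 7.18 ± 2.42 CPM and 5.37 ± 2.64 CPM (SD, n = 5 each), a log2 fold change of -0.47 ± 0.14 SE (95% interval -0.76 to -0.17, edgeR adjusted p = 0.0226). PROS1 had the largest title set difference of the 5 tested members, with short-title libraries higher by 1.03 ± 0.14 SE (adjusted p = 7.66e-05).

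The call on PROS1 was the least firm of the 3. It rests on 462 counts in wild-type and 395 in T348I libraries. It was lost when short-title wild-type replicate 2, any long-title T348I library or short-title T348I replicate 1 was left out (adjusted p between 0.0535 and 0.0637), and 5 of 10 such fits kept it. It was also lost from long-title libraries only (-0.67, adjusted p = 0.0513), from short-title libraries only (-0.22, adjusted p = 0.530), with the long-title T348I libraries summed (-0.41, adjusted p = 0.161) and without long-title wild-type replicates 1 and 2 (-0.33, adjusted p = 0.0897). The interaction was 0.43 ± 0.26 SE (unadjusted p = 0.122). The exact permutation test within title sets gave p = 0.0167 (0.0389 adjusted over the 7 genes).

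MET, the receptor for hepatocyte growth factor, was abundant in both genotypes. The gene (ENSG00000105976.14) lies on chromosome 7, 116672390 to 116798386, plus strand. In wild-type libraries MET measured 271, 345 and 289 CPM in long-title libraries and 310.3 and 370 CPM in short-title ones. In T348I libraries it measured 304, 303 and 301 CPM in long-title libraries and 388 and 412 CPM in short-title ones. The long-title genotypes overlapped, with long-title wild-type replicate 2 the highest of those 6 libraries, while the short-title T348I libraries were above both short-title wild-type libraries. The means were 317 ± 40.3 CPM and 342 ± 54.2 CPM (SD, n = 5 each), a log2 fold change of 0.10 ± 0.09 SE that did not pass the test (95% interval -0.09 to 0.29, edgeR adjusted p = 0.444). None of 24 other settings called MET. The interval of AXL, 0.52 to 0.88, lay above that of MET, but the difference between the 2 genes was not tested.

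HGF, the gene of the MET ligand, was at the floor of detection. The gene (ENSG00000019991.16) lies on chromosome 7, 81699008 to 81770438, minus strand. Wild-type libraries held 2, 1 and 1 counts in long-title libraries and 2 and 5 in short-title ones. T348I libraries held 3, 2 and 0 counts in long-title libraries and 1 and 3 in short-title ones. Neither genotype had more than 5 counts in any library, and the count of 0 in long-title T348I replicate 3 allows a level of up to 0.288 CPM. The sums were 11 and 9 counts, a depth-scaled ratio of T348I over wild type of 0.719 with a 95% counting interval of 0.264 to 1.91. These counts are too few to show a difference.

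**Figure D2:**
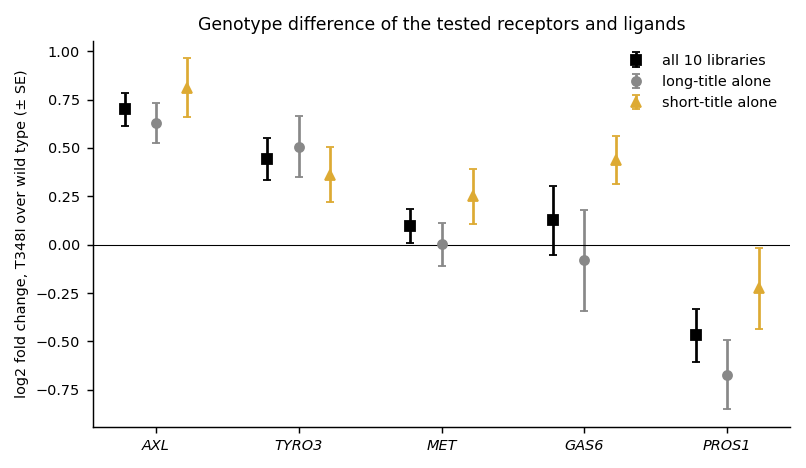
Log2 fold change of T348I over wild type for the 5 tested genes, with SE bars, from all 10 libraries with the title set in the model (squares) and from the long-title (circles) and short-title (triangles) libraries alone. AXL lies at 0.70, with 0.63 and 0.81 in the sets alone, whereas GAS6 changes sign between the sets.

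Levels were compared between genes as CPM per kilobase of annotated exons. AXL had 44.9 to 165 CPM per kb over the 10 libraries, MET 38.5 to 58.6, GAS6 11.4 to 31.2, TYRO3 1.70 to 3.31 and PROS1 0.610 to 1.95. MERTK had 0.0176 to 0.188 CPM per kb and HGF 0 to 0.0324. On this scale AXL was above MET in 9 of 10 libraries, the exception being long-title wild-type replicate 2 with a ratio of 0.918, and MET was above GAS6 in 10 of 10. Per kilobase of the longest coding transcript instead (2490 bases for GAS6, 6635 for MET), GAS6 was above MET in 4 of 10 libraries, at 0.531 to 1.63 times MET. On that length the ranges of AXL (48.9 to 179.8) and GAS6 (27.6 to 75.3) overlapped. So did those of TYRO3 (2.27 to 4.415) and PROS1 (0.927 to 2.96). The order within each of these pairs thus depends on the length used. Per kilobase of annotated exons, GAS6 was 5.19 to 16.2 times TYRO3, TYRO3 1.04 to 5.43 times PROS1 and PROS1 5.18 to 91.5 times MERTK. TYRO3 and PROS1 came closest in short-title wild-type replicate 2, at the ratio of 1.04, and the order of MERTK and HGF rests on at most 9 and 5 counts in a library. AXL made up 95.2% to 97.9% of the per-length signal of the 3 TAM receptors in wild-type libraries and 96.0% to 98.5% in T348I libraries.

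**Figure D3:**
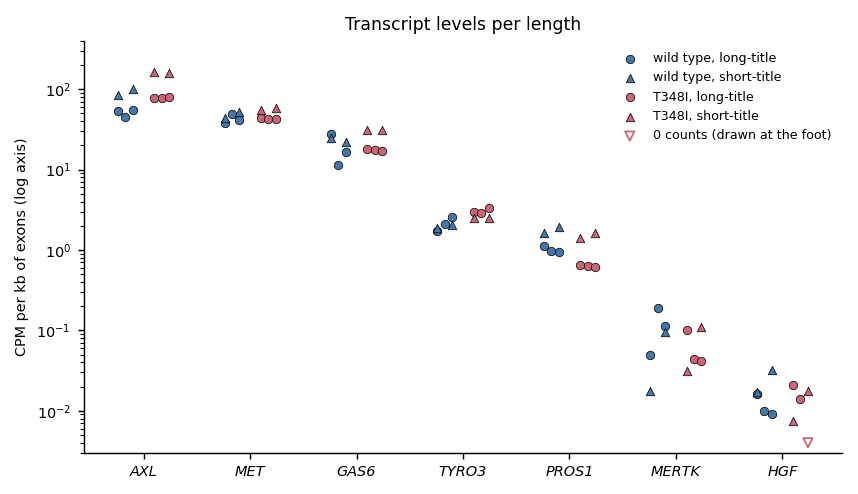
CPM per kilobase of annotated exons on a log axis for the 7 genes in each library, by genotype (blue wild type, red T348I) and title set (circles long-title, triangles short-title), with the library at 0 counts drawn at the foot. AXL and MET are highest, GAS6 is below them, and MERTK and HGF lie under 0.2 CPM per kb in every library.

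The 67 tested genes of 75 listed around these receptors included 9 that were higher and 14 that were lower with T348I (34.3% called, against 27% of all genes tested), with a median log2 fold change of -0.075 against -0.030 for all genes. The lists cover ligand maturation, phosphatidylserine exposure, other ligands, receptor shedding and removal, adaptors, MET co-receptors and factors known at the AXL promoter. Calls were sensitive to the model: 11 of the 23 were kept in each of the 10 fits that left out 1 library, 5 without the title set term and 5 with the long-title T348I libraries summed. FOSL1, LGALS3, CBLB and PTPRJ were kept in all of these.

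Among factors known at the AXL promoter, FOSL1 and JUN, which pair as AP-1, rose and none of the 10 fell (20% called, median 0.061). FOSL1 measured 51.3, 59.3, 84.6, 69.2 and 65.3 CPM in wild-type libraries (the 3 long-title ones first) and 155, 147, 148, 236 and 168 CPM in T348I libraries in the same order. The genotypes did not overlap, and FOSL1 had a log2 fold change of 1.36 ± 0.14 SE (edgeR adjusted p = 4.99e-05). JUN rose from 133 to 164 CPM (0.30, adjusted p = 0.0395), a call kept in 5 of the 10 fits that left out 1 library and lost with no title set term (adjusted p = 0.116) or with the long-title T348I libraries summed (0.0720). The log2 fold change of JUN was 0.62 from short-title libraries only (adjusted p = 0.0122) and 0.09 from long-title libraries only (adjusted p = 0.540), with an interaction of 0.51 (unadjusted p = 0.00623, adjusted p = 0.997). The other AP-1 genes of the list, FOSL2 (237 and 228 CPM, -0.05, adjusted p = 0.791) and FOS (-0.07, adjusted p = 0.839), were not called. YAP1, its relative WWTR1 and their partner TEAD1 had log2 fold changes of 0.06, 0.10 and 0.07, none past the test. Nor did SP1 (-0.03), SP3 (0.12) or MZF1 (-0.36) pass.

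Among 11 genes of receptor shedding and removal, 4 fell and 1 rose (45.5% called, median -0.20). CBLB, a ubiquitin ligase that targets activated receptors, measured 91.8, 75.1, 73.9, 112 and 96.7 CPM in wild-type libraries and 56.4, 54.3, 58.4, 51.4 and 55.9 CPM in T348I libraries, in the order used for FOSL1. All T348I libraries were below all wild-type libraries, and CBLB had a log2 fold change of -0.69 ± 0.10 SE (adjusted p = 0.000359). PTPRJ, a receptor phosphatase that acts on MET among others, fell by 0.56 ± 0.10 SE on the log2 scale (159 to 105 CPM, adjusted p = 0.00146). ADAM17, a protease that sheds receptor ectodomains, fell by 0.28 (133 to 109 CPM, adjusted p = 0.00671). CBL, the relative of CBLB, rose by 0.25 (adjusted p = 0.0338), a call kept in only 3 of the 10 fits that left out 1 library.

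Of the 13 genes of ligand maturation 8 were tested, 2 rose and none fell (25% called, median 0.0099). PLAU, the urokinase gene, whose product can cleave pro-HGF, measured 134, 105, 113, 183 and 162 CPM in wild-type libraries and 167, 166, 163, 345 and 282 CPM in T348I libraries, in the same order. The genotypes were apart within each set but not across sets, and PLAU had a log2 fold change of 0.65 ± 0.10 SE (adjusted p = 0.000558), which did not pass when the title set term was dropped (adjusted p = 0.100). VKORC1L1, a vitamin K epoxide reductase, rose from 124 to 154 CPM (0.32, adjusted p = 0.00809). GGCX, the carboxylase that makes GAS6 and protein S functional, had -0.20 (adjusted p = 0.166). The HGF activator gene HGFAC and the proteases and inhibitors ST14, HPN, SPINT1 and SPINT2 had at most 14 counts in any library and were not tested.

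Of 3 tested genes among other TAM ligands and the RON axis (33.3% called, median -0.57), LGALS3, which encodes galectin-3, a ligand of MERTK, fell from 175 to 118 CPM (-0.57 ± 0.088 SE, adjusted p = 0.000533). LGALS3 libraries ran from 161 to 193 CPM with wild-type YES and from 106 to 144 CPM with T348I, without overlap. MST1R, the gene of the MET relative RON, had at most 9 counts in a library. Of 5 genes of phosphatidylserine exposure 2 fell and none rose (40% called, median -0.079). They were ATP11A (-0.26, adjusted p = 0.0176), a flippase, and its chaperone TMEM30A (-0.29, adjusted p = 0.0450), and with no title set term their adjusted p rose to 0.185 and 0.191.

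Among 20 tested adaptors and relays, 4 fell and 2 rose (30% called, median -0.087). TNS2, whose product tensin-2 binds AXL, fell from 103 to 54.8 CPM (-0.92 ± 0.20 SE, adjusted p = 0.00489). GAB1, the docking protein of MET, fell from 15.5 to 12.2 CPM (-0.35, adjusted p = 0.0157) and SOS1, which activates RAS, from 86.0 to 70.4 CPM (-0.29, adjusted p = 0.0259). CRKL, an adaptor, rose by 0.22 (adjusted p = 0.0272) and AKT1, a kinase downstream of both receptors, by 0.24 (adjusted p = 0.0460). Of these 5, only GAB1 passed with no title set term (adjusted p = 0.0461), and none with the long-title T348I libraries summed (0.0521 to 0.171).

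Among 10 MET co-receptors, 3 fell and 2 rose (50% called, median -0.13). The semaphorin receptor gene PLXNB1 fell from 4.88 to 2.60 CPM (-0.93 ± 0.23 SE, adjusted p = 0.00969), and PLXNB2 from 298 to 235 CPM (-0.35, adjusted p = 0.0284). The integrin subunit genes moved apart: ITGA6 rose from 140 to 188 CPM (0.42, adjusted p = 0.0156), and ITGB4 fell from 9.64 to 6.46 CPM (-0.57, adjusted p = 0.0261). CD44, the hyaluronan receptor, rose from 902 to 1099 CPM (0.28, adjusted p = 0.0288), and EGFR did not pass (0.17, adjusted p = 0.133). None of the 5 calls passed with no title set term (adjusted p = 0.117 to 0.579) or with the long-title T348I libraries summed (0.0702 to 0.145).

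**Figure D4:**
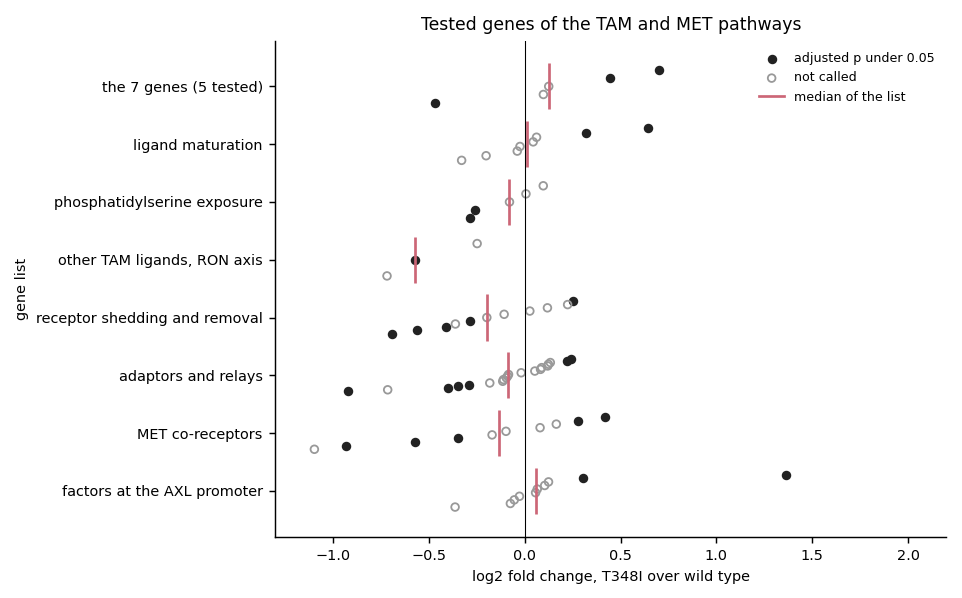
Log2 fold change of T348I over wild type for each tested gene of the lists, with filled points for an adjusted p under 0.05, open points for the rest and a red line at the median of each list. The point farthest to the right is FOSL1 at 1.36, and the medians lie between -0.57 and 0.13.

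The nearest tested genes beside the 5 tested members were followed too. CYP2S1, 11.7 kb from AXL, fell (log2 fold change -0.58, adjusted p = 0.0144), and HNRNPUL1, 0.73 kb on the other side, had 0.23 (adjusted p = 0.0636). Beside TYRO3, RPAP1 had 0.08 (adjusted p = 0.493) and MGA fell by 0.28 (adjusted p = 0.0138). EPHA3, the nearest tested gene on the lower-coordinate side of PROS1, lies 4391 kb away and fell by 0.50 (adjusted p = 0.0362). CAV1, the caveolin-1 gene 111 kb from MET, rose (0.46, adjusted p = 0.000863), while CAPZA2 on the other side did not pass (-0.02, adjusted p = 0.869). Neither GAS6-AS1 (-0.07, adjusted p = 0.787) nor GAS6-DT (0.19, adjusted p = 0.273) was called beside GAS6.

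Likeness to a member was measured as the mean absolute gap between log2 CPM profiles over the 10 libraries, each centred on its gene mean, among 11788 tested protein-coding genes. For AXL the smallest gaps were those of FXYD5 (0.08), DMBT1 (0.09), ANXA3 (0.09), PTPRF (0.09) and WDR62 (0.10), where the median gene had 0.53. These genes were higher in T348I and in short-title libraries, as AXL was, which follows from choosing them by likeness to its profile. Nearest to TYRO3 were TNFRSF10A (0.06), CABLES2 (0.07) and FN3KRP (0.07), with a median over genes of 0.31. Nearest to PROS1 were RAB30 (0.11), EHD2 (0.13) and SYT11 (0.13), nearest to GAS6 LPCAT1 (0.09), PLEKHG3 (0.10) and FBLIM1 (0.11), and nearest to MET HABP4 (0.03), DDX50 (0.06) and PTBP3 (0.06). No member was among the nearest genes of another.

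**Figure D5:**
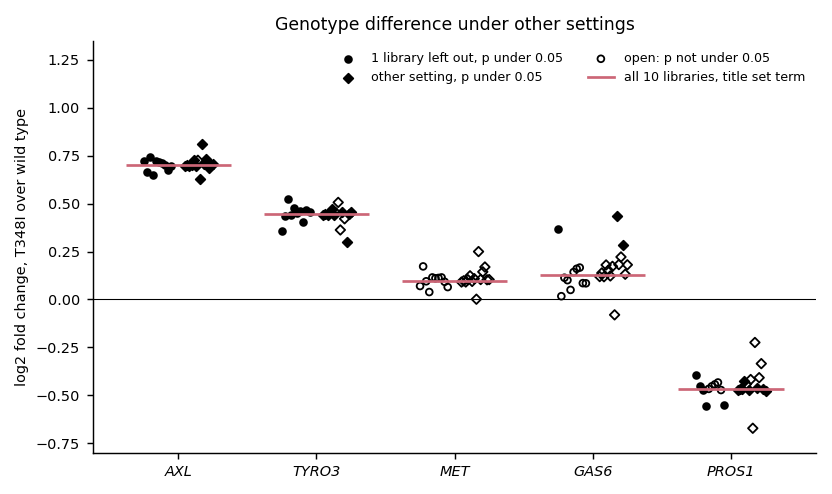
Log2 fold change of T348I over wild type for the 5 tested genes under 24 other settings each. Circles are fits that left out 1 library, diamonds are other settings, and a red line marks the value from all 10 libraries. Filled points have p under 0.05, unadjusted for the permutation test and adjusted for the rest. AXL stays between 0.63 and 0.81 and is filled in 23 of 24, TYRO3 in 20, PROS1 in 13, GAS6 in 3 and MET in none.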

How the data were processed

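Poly(A) RNA was sequenced in 10 stranded libraries. Per the submitters' processing notes, CASAVA 1.8.2, Trimmomatic 0.35 and STAR 2.5.1b were used with GRCh38. The authors deposited raw counts per gene and library, not normalized. Opposite-strand counts were used (92.2% to 94.5% of strand-assigned gene reads). Lines naming no gene held 20.7% to 30.0% of reads and were left out, as were 45 pseudoautosomal Y copies. Of 58174 identifiers, 57836 matched GENCODE 29, whose exons gave the lengths.

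edgeR 4.0.16 in R 4.3.3 kept 13743 genes (filterByExpr, minimum count 10), scaled them by TMM and fitted genotype and title set by quasi-likelihood. P-values were adjusted by Benjamini-Hochberg across all of them (threshold 0.05), and each SE was derived by dividing the size of the log2 fold change by the root of F. The fit was tested on simulated counts with 50 changed genes per size of change. It recovered 14% of 1.25-fold, 70% of 1.5-fold, 84% of 2-fold and 100% of 4-fold changes, and 6.29% of its calls were false. The changed genes were few among the 13521 tested there and were drawn above a cut-off on the mean count. In the data 27% of genes were called, so these rates may not carry over to them. Alternatives were DESeq2 1.42.0, limma-voom (limma 3.58.1), other scalings, filters, library sets and unstranded counts. Members and lists were chosen with earlier results of these data known. Named list genes are up to 3 called genes with the lowest p per list and direction. TIMP3, uncalled genes and counts of untested ones named beside them were chosen after their values were seen. The nearest tested neighbours and the genes most alike (5 for AXL, 3 for the others) were named by rule, and some of the genes examined are not reported here. Intervals from counts cover counting error only.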

Additional observations from a re-analysis of the deposited data

How the results depend on the processing

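Under 24 alternatives each, AXL kept its call in 23, TYRO3 in 20 and PROS1 in 13. These 24 include the exact permutation test, which was counted by its unadjusted p (0.0167 for each of these genes). MET was uncalled in all 24. GAS6 reached the threshold in 3. Without the title set term, AXL had 0.73, TYRO3 0.45 and PROS1 -0.42, none called, leaving 0 members higher, 0 lower, 1 listed gene higher, 4 lower, and 818 genes higher and 497 lower in all (against 1884 and 1825 with it). In the long-title libraries alone, TYRO3 had 0.51, GAS6 -0.080 and PROS1 -0.67, with 1 member higher and 0 lower, 2 listed genes higher and 2 lower, and 698 and 499 genes in all. In the short-title libraries alone, TYRO3 had 0.36, GAS6 0.44 and PROS1 -0.22, with 0 members lower, 3 listed genes higher and 4 lower, and 935 and 599 genes in all. Both of these use fewer libraries. With the long-title T348I libraries summed, TYRO3 had 0.42 and PROS1 -0.41, with 1 member higher and 0 lower, 2 listed genes higher and 3 lower, and 899 and 563 genes in all. With no low-count filter PROS1 had -0.44 and 0 members were lower. Without wild-type long-title replicates 1 and 2, GAS6 had 0.28 and PROS1 -0.33, with 0 members lower. The cause of these shifts was not tested. Leaving out 1 library at a time gave 0.65 to 0.74 for AXL, 0.36 to 0.53 for TYRO3, 0.017 to 0.37 for GAS6, -0.56 to -0.39 for PROS1 and 0.04 to 0.17 for MET, with 2 to 3 members higher and 0 to 1 lower, and 4 to 12 listed genes higher and 7 to 17 lower. All genes called lower came to 1204 without T348I long-title replicate 1 and 1108 without T348I short-title replicate 1. No label says whether the replicate numbers pair the libraries. Deviations of same-numbered libraries correlated at -0.03, 0.16 and 0.07 in the long-title set, and those of different-numbered ones at -0.16 to 0.08. In the short-title set the values were 0.22 and -0.22, equal in size because each genotype holds only 2 libraries there. These few values cannot settle whether the libraries are paired. With the replicate block AXL had 0.71, TYRO3 0.46, GAS6 0.18, PROS1 -0.46 and MET 0.10, and no call changed. Depth limits MERTK and HGF, which had at most 9 counts in a library.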

Other observations

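The balance of receptor to ligand was read from CPM per kilobase of exons, as ratios within a library and with no test. AXL over GAS6 ran from 1.93 to 4.57 in the 5 wild-type libraries and from 4.30 to 5.29 in the 5 T348I libraries. The ranges overlap because short-title wild-type replicate 2 had the value 4.57. AXL over MET ran from 0.918 to 1.38 in the long-title wild-type libraries and from 1.82 to 1.89 in the long-title T348I libraries. In the short-title set it was 1.91 and 1.93 with wild-type YES and 2.68 and 2.996 with T348I. GAS6 over PROS1 ran from 11.7 to 24.5 in the long-title wild-type libraries and from 27.4 to 28.2 in the long-title T348I libraries, and from 11.2 to 15.3 and 19.4 to 22.1 in the short-title ones. The size of these ratios depends on the length used. The longest coding transcript of GAS6 has 2490 bases against 6006 of exons, and that of AXL 4737 against 5154. Per kilobase of that transcript AXL over GAS6 is lower, and AXL was not above GAS6 in every library.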
